A study of Mus musculus with 7 samples.

Results

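The inducible and constitutive HSP70 genes, the HSP90 pair, the mitochondrial chaperonin pair and their closest cochaperones were followed across CD4+ CD25+ cells sorted from mouse liver. The set held 10 genes of the 53465 in the deposited count table, listed by name as Hspa1a, Hspa1b, Hspa8, Dnajb1, Dnaja1, Hsph1, Hsp90aa1, Hsp90ab1, Hspd1 and Hspe1 and found by their Ensembl identifiers. They were chosen by their counts in these same libraries, with the differences between CD73-MCD, MCD and NCD in view, so their differences between groups are given below as descriptions, with no test of the genes themselves. All 10 were counted in every library and passed the filter on low counts.

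RNA-seq libraries came from 3 groups. CD73-MCD held 3 libraries from CD73 knockout mice fed a methionine/choline-deficient diet (MCD), a diet used to give mice fatty liver with inflammation. MCD held 2 libraries from wild type mice on the same diet, and NCD held 2 libraries from wild type animals given a normal control diet. Feeding lasted 4 weeks, the mice were C57BL/6 or CD73 knockouts, and total RNA was taken with Trizol from cells sorted by flow cytometry for CD4 and CD25, a surface phenotype that marks regulatory T cells (Treg). A knockout group on the control diet was not analysed here, so genotype was compared on the deficient diet alone. CD73-MCD against NCD differs in both genotype and diet, and their parts cannot be told apart. The labels do not say whether libraries of a group came from separate animals or pools, so any p-value speaks only of the spread between these libraries, and that spread may be technical. The age and sex of the mice and the deleted part of the CD73 gene were not given in the sources used here.

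Heat shock proteins of the HSP70 class bind unfolded stretches of other proteins and release them in a cycle driven by ATP. J-domain proteins bring clients to HSP70 and start its ATP hydrolysis, nucleotide exchange factors reopen it, and HSP90 takes over clients such as kinases and nuclear receptors at a later stage of folding. The transcription factor HSF1 drives the inducible genes of this network under heat, proteotoxic stress and, in many tissues, cell handling and dissociation, by binding inverted repeats of the unit GAA, called heat shock elements. In T cells HSP70 and HSP90 are abundant, and clients of HSP90 include the kinase LCK.

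Upstream stretches that hold a heat shock element are shown, because that element is the best known shared feature of heat shock genes. The choice of genes did not use sequence. They were listed by name as heat shock genes, however, so finding the element upstream of them is not independent support. RefSeq promoter sequences on GRCm38.p6 were matched by symbol for 7 of the 10 genes, and Hspa8, Hsp90aa1 and Hsp90ab1 had no entry. Capitals mark each heat shock element, searched as GAANNTTC or TTCNNGAA. Both motifs read the same on either strand, and matches may overlap by a shared unit. Hspa1a is shown at chr17:34972157-34972306 and Hspa1b at chr17:34959239-34959388, both on the minus strand and both the 150 bases before the start. The shorter stretches of 30 bases hold the elements of Hspe1 at chr1:55088053-55088082 on the plus strand, Hsph1 at chr5:149636352-149636381 on the minus strand and Dnaja1 at chr4:40722333-40722362 on the plus strand.
Hspa1a: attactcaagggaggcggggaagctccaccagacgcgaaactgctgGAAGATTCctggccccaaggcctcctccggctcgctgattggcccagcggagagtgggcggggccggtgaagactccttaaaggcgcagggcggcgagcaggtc
Hspa1b: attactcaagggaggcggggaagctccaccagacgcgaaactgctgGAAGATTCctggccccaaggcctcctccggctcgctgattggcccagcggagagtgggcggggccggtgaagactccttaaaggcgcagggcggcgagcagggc
Hspe1: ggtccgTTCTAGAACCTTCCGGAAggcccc
Hsph1: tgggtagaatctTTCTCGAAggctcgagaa
Dnaja1: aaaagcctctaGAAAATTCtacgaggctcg

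An element of 2 units lay within 250 bases before a RefSeq start of 6 of these 7 genes. The same was true of 14.5% of 27025 mouse genes with a promoter entry, of 12.8% of 32851 windows of that length, and of 12 of 70 other chaperone network genes. Hspa1a and Hspa1b, neighbouring genes on chromosome 17, carried the same element at -104 to -97 from the start, and their 250 upstream bases differed at 3 positions. The divergent genes Hspd1 and Hspe1 share 1 upstream region, in which the element runs on over overlapping units. It lay at -89 to -72 from the Hspe1 start and at -144 to -127 from the nearer Hspd1 start. With these 2 pairs, the 7 genes are not 7 separate cases. Hspd1 and Hspe1 were the 2 genes of the 7 with the longer motif of 3 units, in which a further inverted unit follows after NN on either strand. It was found upstream of 0.514% of genes. Dnajb1 had no match to these letters in its windows.

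**Figure D1:**
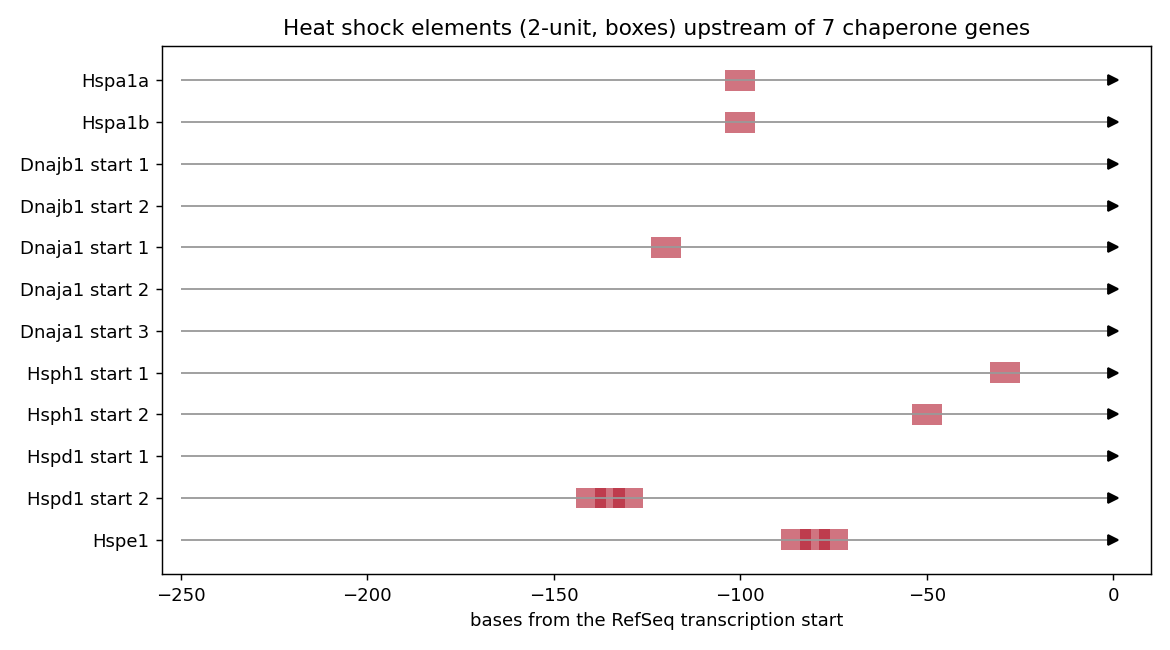
Positions of heat shock elements of 2 units (boxes, darker where they overlap) in the 250 bases before each RefSeq start (arrowheads at 0) of 7 chaperone genes; the axis is the distance from the start in bases. Boxes lie at -104 to -97 for both Hspa1a and Hspa1b, and a run of overlapping boxes lies before Hspe1 and before the second start of Hspd1.

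The libraries held 19731501 to 24398738 counts, and the 10 genes together took 1.58%, 1.66% and 1.06% of them in the CD73-MCD libraries, 0.839% and 0.423% in the MCD libraries, and 1.23% and 0.780% in the NCD libraries. Values below are CPM, counts scaled to library sizes that TMM had adjusted, unless TPM is named. Nt5e, the gene of CD73, had 5.88 to 14.5 CPM in CD73-MCD, 87.6 to 177 CPM in MCD and 241 to 243 CPM in NCD, as labelled. T cell markers were present in each library, with Trac, the T cell receptor alpha constant gene, at 1521 to 3692 CPM. Foxp3, the Treg factor, stood at 108 to 287 CPM. RNA of other cells was present in each library too. The 10 Kupffer cell and macrophage markers, led by the lysozyme gene Lyz2, summed to 6856 to 11830 CPM in CD73-MCD, 2195 and 30130 CPM in MCD, and 10140 and 1110 CPM in NCD. In bulk RNA, fewer cells of a type and less RNA per cell cannot be told apart.

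MCD replicate 2 stands apart and bears on the results below. It was the lowest of the 7 libraries for all 10 chaperone genes, as it was for 11.6% of the 14784 genes tested, 16% of the 6522 genes that averaged 20 CPM or more, and 12 of 82 tested other chaperone network genes. That library also had the highest sum of macrophage markers. Its sums of the 6 T cell markers and 5 Treg markers were the lowest, at 3124 and 694 CPM, where the other libraries had 3721 to 8168 and 1269 to 2089 CPM. Hepatocyte markers (57.2 CPM, against 1.80 to 26.0 CPM elsewhere) and erythroid markers (325 CPM, against 4.67 to 51.3 CPM) were highest in it as well. None of these markers was at 0 in all libraries. The part of this cell mixture in the chaperone values was not tested, and fold changes that use the MCD group are given below with and without that library.

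The ranking of the members by level was set per length of merged exons, as TPM (counts per length, scaled to a common total) computed from the counts, with no test. Hspa8 had the highest mean over the 7 libraries (2075 TPM, range 1103 to 2797 TPM). Hspa1a followed (1795 TPM, 144 to 3576 TPM), then Hsp90ab1 (1652 TPM, 740 to 2328 TPM), Hsp90aa1 (1414 TPM, 448 to 2376 TPM), Dnajb1 (1223 TPM, 181 to 3158 TPM) and Hspd1 (899 TPM, 507 to 1018 TPM). Neighbours among these 6 overlap in their ranges and are not separated by the spread between libraries. Dnaja1 (265 TPM, 143 to 327 TPM), Hspe1 (169 TPM, 67.5 to 354 TPM) and Hsph1 (98.1 TPM, 47.8 to 114 TPM) had lower means. Hspe1 overlaps both of its neighbours in this order, and every Dnaja1 library lies below every Hspd1 library. Hspa1b, at 14.9 TPM (1.42 to 31.5 TPM), lay below every library of the other 9. By this measure Hspa1a held rank 1 of the 10 in each CD73-MCD library, ranks 6 and 6 in MCD, and ranks 3 and 5 in NCD. Hspa8 held rank 1 in the 4 wild type libraries. With the length of the longest transcript in place of merged exons, Hspa1a held rank 1 in CD73-MCD replicate 1 and rank 2 behind Hspa8 in CD73-MCD replicates 2 and 3.

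Hspa1a (ENSMUSG00000091971, chromosome 17, 34969190 to 34972156, minus strand, GRCm38) encodes the stress-inducible cytosolic HSP70. It had 3209, 3107 and 2012 CPM in the CD73-MCD libraries 1, 2 and 3, 482 and 157 CPM in the MCD libraries 1 and 2, and 1902 and 578 CPM in the NCD libraries 1 and 2. All 3 CD73-MCD libraries lie above all 4 wild type libraries, and both MCD libraries lie below both NCD libraries, by a small margin between MCD replicate 1 and NCD replicate 2. The log2 fold change was 3.12 (SE 0.70) in CD73-MCD against MCD and -1.96 (SE 0.69) in MCD against NCD. Without MCD replicate 2 these were 2.53 and -1.36, and without NCD replicate 1 the second was -0.86. Hspa1a shares 564 exonic bases with the predicted gene Gm20481 on the opposite strand.

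Hspa1b (ENSMUSG00000090877, chromosome 17, 34956436 to 34959238, minus strand) encodes a nearly identical HSP70 from the neighbouring intronless gene. It had 22.7, 14.99 and 27.3 CPM in CD73-MCD, 4.51 and 1.47 CPM in MCD, and 13.3 and 5.88 CPM in NCD. The groups stand in the same order as for Hspa1a and do not overlap. Its log2 fold changes came to 2.86 (SE 0.80) in CD73-MCD against MCD and -1.67 (SE 0.80) in MCD against NCD, and without MCD replicate 2 to 2.26 and -1.08. These values are uncertain, since the coding sequences of the pair are 99.6% identical, with 8 of 1923 bases different, and 82.3% of the 50-base stretches of the Hspa1b coding sequence also occur in Hspa1a. How the authors counted reads that match both genes was not given in the sources used here. Counts of Hspa1b, 28 to 574 per library, came to between 0.483% and 1.36% of those of Hspa1a in the same library. After the coding sequence the genes diverge, with 61.3% identity.

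Hspa8 (ENSMUSG00000015656, chromosome 9, 40800984 to 40810087, plus strand) encodes HSC70, the constitutive cytosolic HSP70, which also drives clathrin uncoating. It had 3149, 3579 and 2344 CPM in CD73-MCD, 2503 and 1748 CPM in MCD, and 3340 and 2907 CPM in NCD. CD73-MCD replicate 3 lies below MCD replicate 1, so these groups overlap, while both MCD libraries lie below both NCD libraries. The log2 fold changes were 0.51 (SE 0.29) in CD73-MCD against MCD and -0.56 (SE 0.32) in MCD against NCD, and without MCD replicate 2 they were 0.27 and -0.32. Hspa8 shares exonic bases with 3 small nucleolar RNA genes, Snord14c, Snord14d and Snord14e, whose reads could be counted with either gene.

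Dnajb1 (ENSMUSG00000005483, chromosome 8, 83608193 to 83612653, plus strand) encodes HSP40, the inducible J-domain partner of HSP70. It had 2282, 3010 and 1145 CPM in CD73-MCD, 528 and 214 CPM in MCD, and 914 and 282 CPM in NCD. Every CD73-MCD library lies above the 4 wild type libraries, and the 2 wild type groups overlap. The log2 fold change was 2.53 (SE 0.70) in CD73-MCD against MCD and 2.02 without MCD replicate 2. In MCD against NCD it was -0.69 (SE 0.69) and -0.18 without MCD replicate 2, with the sign turned to 0.40 without NCD replicate 1.

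Dnaja1 (ENSMUSG00000028410, chromosome 4, 40722150 to 40737149, plus strand) encodes a constitutive, farnesylated J-domain protein of the cytosol. It had 769, 840 and 604 CPM in CD73-MCD, 659 and 456 CPM in MCD, and 836 and 858 CPM in NCD. CD73-MCD overlaps MCD, and both MCD libraries lie below both NCD libraries. Fitted log2 fold changes were 0.40 (SE 0.28) in CD73-MCD against MCD and -0.60 (SE 0.30) in MCD against NCD, and without MCD replicate 2 they were 0.16 and -0.36. Dnaja1 shares 608 exonic bases with Smu1 on the opposite strand, and the strand setting of the counting was not given in the sources used here.

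Hsph1 (ENSMUSG00000029657, chromosome 5, 149614287 to 149636376, minus strand) encodes HSP105 of the HSP110 class, a nucleotide exchange factor of HSP70. It had 214, 237 and 254 CPM in CD73-MCD, 219 and 128 CPM in MCD, and 267 and 245 CPM in NCD. MCD replicate 1 lies among the CD73-MCD libraries, and MCD replicate 2 alone is far below the rest. In the fit the log2 fold changes were 0.44 (SE 0.30) in CD73-MCD against MCD and -0.56 (SE 0.33) in MCD against NCD, and 0.10 and -0.23 without MCD replicate 2.

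Hsp90aa1 (ENSMUSG00000021270, chromosome 12, 110690605 to 110702728, minus strand) encodes the stress-inducible HSP90 alpha. It had 2826, 2402 and 1476 CPM in CD73-MCD, 1187 and 649 CPM in MCD, and 2203 and 1343 CPM in NCD. Both MCD libraries lie below the other 5, and CD73-MCD overlaps NCD. The log2 fold changes were 1.28 (SE 0.42) in CD73-MCD against MCD and -0.95 (SE 0.45) in MCD against NCD, and 0.91 and -0.58 without MCD replicate 2.

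Hsp90ab1 (ENSMUSG00000023944, chromosome 17, 45567775 to 45573271, minus strand) encodes the mainly constitutive HSP90 beta. It had 1766, 1880 and 1373 CPM in CD73-MCD, 1655 and 818 CPM in MCD, and 2249 and 1078 CPM in NCD. All 3 groups overlap. The log2 fold changes were 0.44 (SE 0.42) in CD73-MCD against MCD and -0.43 (SE 0.46) in MCD against NCD. Without MCD replicate 2 they were 0.01 and -0.004, and without NCD replicate 1 the second turned to 0.20.

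Hspd1 (ENSMUSG00000025980, chromosome 1, 55077835 to 55088243, minus strand) encodes HSP60, which forms the folding chamber of the mitochondrial matrix. It had 767, 778 and 832 CPM in CD73-MCD, 788 and 494 CPM in MCD, and 718 and 836 CPM in NCD. Apart from MCD replicate 2 the libraries lie between 718 and 836 CPM, so the groups overlap. As fitted, log2 fold changes were 0.31 (SE 0.28) in CD73-MCD against MCD and -0.28 (SE 0.30) in MCD against NCD, and 0.01 and 0.02 without MCD replicate 2.

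Hspe1 (ENSMUSG00000073676, chromosome 1, 55088132 to 55091307, plus strand) encodes HSP10, the lid of that chamber. It had 119, 155 and 60.0 CPM in CD73-MCD, 53.6 and 36.7 CPM in MCD, and 77.8 and 37.5 CPM in NCD. CD73-MCD lies above MCD by a small margin in replicate 3, and NCD overlaps both other groups. The log2 fold change was 1.30 (SE 0.52) in CD73-MCD against MCD and 1.06 without MCD replicate 2. In MCD against NCD it was -0.35 (SE 0.54), with -0.10 without MCD replicate 2 and 0.27 without NCD replicate 1. Hspd1 and Hspe1 share 112 exonic bases on opposite strands.

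**Figure D2:**
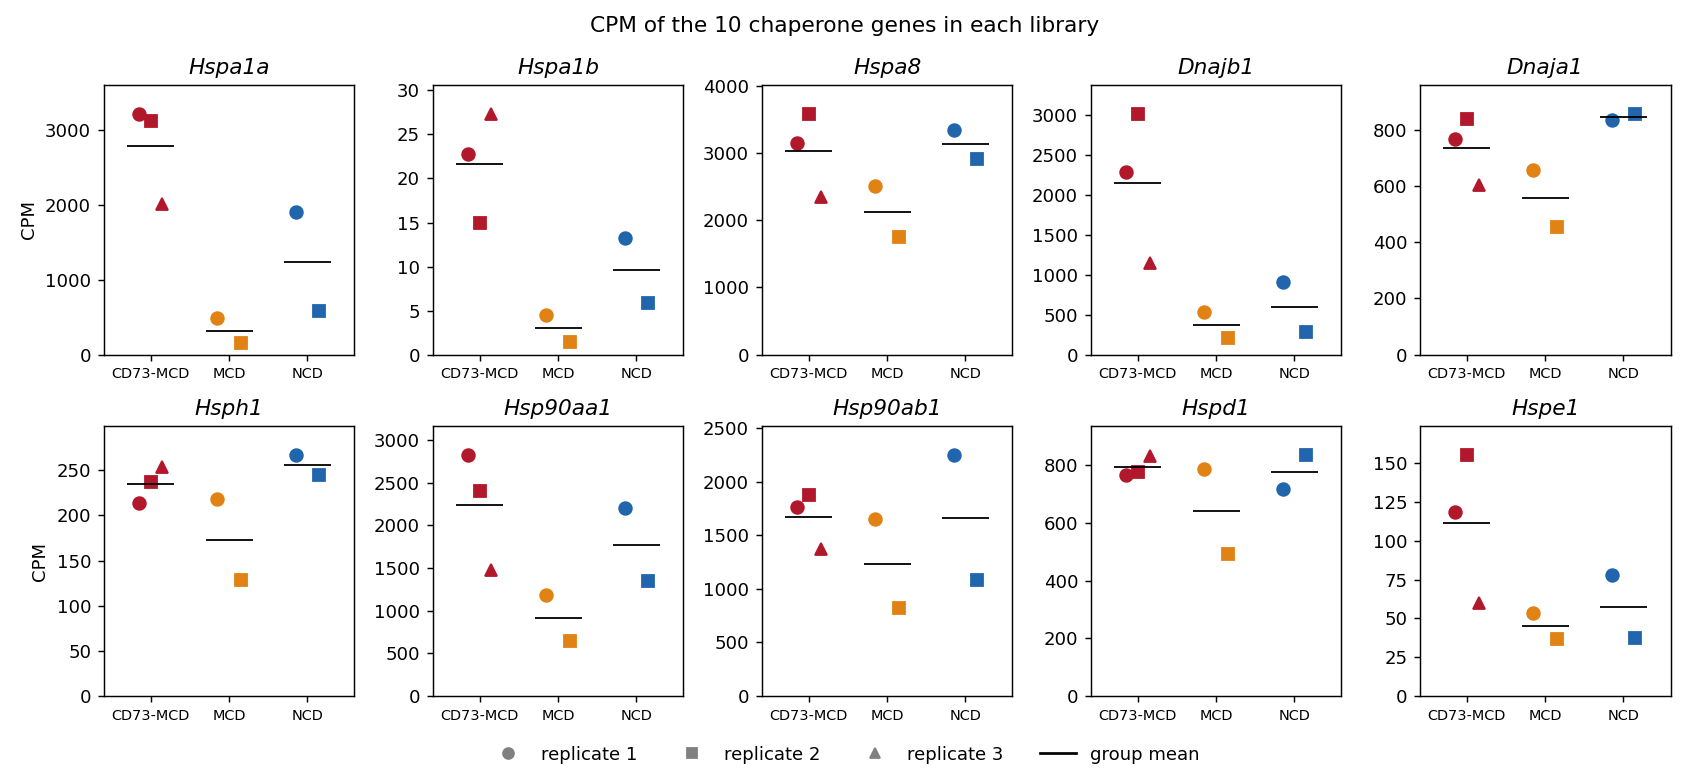
CPM of each of the 10 chaperone genes (1 panel per gene, linear axis starting at 0) in the CD73-MCD, MCD and NCD libraries; each symbol is 1 library and the line is the group mean. The 3 CD73-MCD libraries lie above all wild type libraries for Hspa1a, Hspa1b and Dnajb1, and MCD replicate 2 (orange square) is the lowest library in every panel.

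With CD73 lost on the deficient diet, Hspa1a, Hspa1b and Dnajb1 stood far above their MCD values. All 10 genes had higher fitted values in CD73-MCD than in MCD, where 47.9% of all genes tested were higher. The groups did not overlap for Hspa1a, Hspa1b, Dnajb1, Hsp90aa1 and Hspe1, and these same 5 genes had a log2 fold change above 1. Over all genes, 8.37% were higher with no overlap and 14.1% were above 1. The median log2 fold change of the 10 genes was 0.90, beside -0.03 over all genes. Hspa1a averaged 2776 ± 664 CPM in CD73-MCD (SD, n = 3) and 320 ± 230 CPM in MCD (SD, n = 2), and Dnajb1 averaged 2146 ± 940 CPM in CD73-MCD (SD, n = 3) and 371 ± 222 CPM in MCD (SD, n = 2). For Hspa8, Dnaja1, Hsph1, Hsp90ab1 and Hspd1 the log2 fold changes were 0.31 to 0.51, with overlapping libraries. With MCD replicate 2 left out, all 10 genes kept a positive sign, with a median of 0.59. The median over all genes was then 0.11, and Hspd1 (0.01), Hsp90ab1 (0.01) and Hsph1 (0.10) lay below it. All 10 macrophage markers were lower in CD73-MCD than in MCD in the fit, but without MCD replicate 2 the direction turned, with 7 higher and 3 lower. Of 15 immediate early genes, which cell handling also induces, 11 were higher, and 14 without that library. B cell markers were higher for 5 of 6 genes with and without it. The part of these other signals in the chaperone values was not tested.

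No gene of the 14784 passed an adjusted p of 0.05 in this comparison by edgeR's quasi-likelihood test with Benjamini-Hochberg adjustment. At an unadjusted p under 0.05 edgeR had 178 genes (1.2%) higher and 302 (2.04%) lower. DESeq2 called 50 genes and limma voom called 0.

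On the deficient diet in wild type mice, the same genes stood lower. All 10 had lower fitted values in MCD than in NCD, where 47.2% of all genes tested were lower. The groups did not overlap for Hspa1a, Hspa1b, Hspa8, Dnaja1, Hsph1 and Hsp90aa1, beside 14.8% of all genes. Only Hspa1a and Hspa1b were below -1, beside 12.4% of all genes. The median log2 fold change was -0.58, beside 0.04 over all genes. This comparison shares the MCD libraries with the one above, so MCD replicate 2 enters both with opposite signs. Without that library the median was -0.27 and Hspd1 stood at 0.02. Without NCD replicate 1, Dnajb1, Hsp90ab1 and Hspe1 turned positive. Over all alternatives run, the log2 fold change of Hspa1a reached -0.26 and that of Hsp90aa1 -0.18. Markers of several cell types differed between these groups too. All 6 T cell markers were lower in MCD, with a median of -0.61, and without MCD replicate 2 there were 5 lower and 1 higher, with a median of -0.17. The 6 NK cell markers summed to 129 and 277 CPM in MCD and 49.5 and 38.2 CPM in NCD, and the 6 dendritic cell markers to 575 and 1031 CPM in MCD and 316 and 229 CPM in NCD. Of the 10 macrophage markers 8 were higher in MCD, and 1 was without MCD replicate 2. Immediate early genes, unlike the members, were mostly higher in MCD, with 12 of 15 higher, and 8 without MCD replicate 2. They summed to 18750 and 27070 CPM in MCD, and 28820 and 12580 CPM in NCD. The part of all these markers in the chaperone values was not tested. No gene passed over all genes by edgeR, with 586 (3.96%) higher and 301 (2.04%) lower at an unadjusted p under 0.05. DESeq2 called 315 genes and limma voom called 0.

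Against the wild type control diet, the CD73-MCD cells had higher values of the inducible HSP70 genes and their J-domain partner, and log2 fold changes between -0.20 and 0.33 for 6 of the others. Hspa1a, Hspa1b and Dnajb1 did not overlap between the groups, where 13.4% of all genes were higher with no overlap. Their log2 fold changes were 1.16 (SE 0.63), 1.18 (SE 0.73) and 1.84 (SE 0.68), and between 0.55 and 2.93 with any 1 library left out. Hspe1 stood at 0.95 (SE 0.51) and Hsp90aa1 at 0.33 (SE 0.41), both with overlap. The other 5 genes lay between -0.20 and 0.03. In all, 7 genes were higher and 3 lower, or 8 and 2 with libraries scaled by totals alone, where Hspa8 turned positive, beside 52.8% and 46.9% of all genes, with a median of 0.18 beside 0.06. No gene passed by edgeR (698 higher, 4.72%, and 628 lower, 4.25%, at an unadjusted p under 0.05), DESeq2 called 562 genes, and limma voom called 0. Cell type markers differed here as well. T cell markers were lower for all 6 genes and summed to 3721 to 4264 CPM in CD73-MCD, against 5184 and 8168 CPM in NCD. NK cell markers summed to 133 to 141 CPM in CD73-MCD, against 49.5 and 38.2 CPM in NCD, with all 6 genes higher and no overlap. Dendritic cell markers summed to 610 to 1466 CPM in CD73-MCD, against 316 and 229 CPM in NCD. Of the 6 B cell markers 5 were higher, 4 of them with no overlap, while the immunoglobulin gene Ighm was lower. Of 15 immediate early genes 14 were higher, 2 of them with no overlap. They summed to 27510, 27560 and 24990 CPM in CD73-MCD, and 28820 and 12580 CPM in NCD, so the sums overlap. The part of these markers in the chaperone values was not tested. These comparisons share libraries, so their values are given side by side and not as separate evidence.

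Ratios of counts within a library do not depend on the scaling between libraries. The 4 ratios below set an inducible gene, or in the mitochondrial pair HSP10, over its partner, and were chosen after the values were seen. Hspa1a over Hspa8 was 1.02, 0.868 and 0.858 in CD73-MCD, 0.193 and 0.0899 in MCD, and 0.570 and 0.199 in NCD. Dnajb1 over Dnaja1 was 2.97, 3.58 and 1.90 in CD73-MCD, 0.801 and 0.469 in MCD, and 1.09 and 0.328 in NCD. In both ratios each CD73-MCD library lies above all 4 wild type libraries. Hsp90aa1 over Hsp90ab1 was 1.60, 1.28 and 1.08 in CD73-MCD, 0.717 and 0.793 in MCD, and 0.979 and 1.25 in NCD. This ratio was lowest in the 2 MCD libraries, and CD73-MCD overlaps NCD. Hspe1 over Hspd1 was 0.155, 0.200 and 0.0721 in CD73-MCD, 0.0679 and 0.0742 in MCD, and 0.108 and 0.0448 in NCD, with all groups overlapping.

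**Figure D3:**
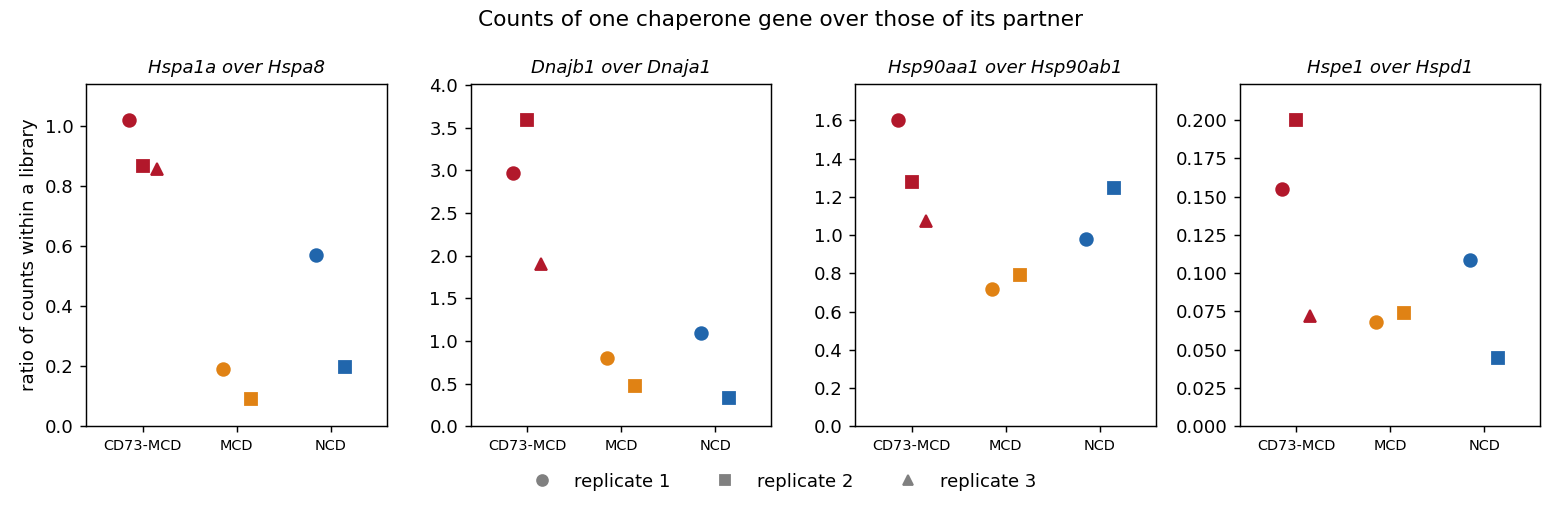
Ratio of the counts of 1 chaperone gene to those of its partner within each library (linear axes starting at 0), for CD73-MCD, MCD and NCD; each symbol is 1 library. For Hspa1a over Hspa8 the CD73-MCD libraries lie at 0.858 to 1.02 and the wild type libraries at 0.0899 to 0.570.

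The members differed in how widely they varied between libraries. The highest library over the lowest was 20.4-fold for Hspa1a, 18.6-fold for Hspa1b and 14.1-fold for Dnajb1. It was 4.36-fold for Hsp90aa1 and 4.24-fold for Hspe1, and between 1.69-fold for Hspd1 and 2.75-fold for Hsp90ab1 in the other 5. The 3 most variable genes are the inducible HSP70 pair and its inducible J-domain partner. On log2 CPM centred over the 7 libraries, the mean of the 10 genes was 0.67, 0.72 and 0.26 in CD73-MCD, -0.34 and -1.29 in MCD, and 0.37 and -0.38 in NCD. Hsp90aa1 was the member nearest to that mean, with a root mean square distance of 0.17, and Hspa1a was the farthest, at 0.87. This distance grows with the size of the changes, and Hspa1a had the same sign as the mean in each library.

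Other genes of the chaperone network were taken from lists of 88 genes, of which 82 were tested, chosen like the members with earlier results known. None passed an adjusted p of 0.05 by edgeR in any of the 3 comparisons. DESeq2 called 1, in CD73-MCD against NCD, where it called 562 of all 14784 genes. At an unadjusted p under 0.05 edgeR had 4 higher and 1 lower in CD73-MCD against MCD, beside 1.2% and 2.04% of all genes. In MCD against NCD it had 0 higher and 2 lower, beside 3.96% and 2.04%. In CD73-MCD against NCD it had 3 higher and 3 lower, beside 4.72% and 4.25%. The median log2 fold change of the 82 genes was -0.06 in CD73-MCD against MCD, with 37 of 82 higher. In MCD against NCD it was 0.00, with 41 of 82 lower. These medians are close to those of all genes.

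Hsf1, the gene of the heat shock factor itself, had 60.9, 122 and 47.5 CPM in CD73-MCD, 86.5 and 56.9 CPM in MCD, and 74.7 and 69.5 CPM in NCD. The groups overlap, and the log2 fold changes were 0.10 (SE 0.45) in CD73-MCD against MCD and -0.01 (SE 0.49) in MCD against NCD, or -0.17 and 0.26 without MCD replicate 2. Transcript level does not show the activity of the factor, which is set largely at the protein.

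Among the 4 tested small heat shock protein genes, Hspb1 differed the most. Hspb1, which encodes HSP27, a holder of unfolded proteins, had 39.4, 46.8 and 11.6 CPM in CD73-MCD, 5.53 and 2.47 CPM in MCD, and 71.6 and 6.57 CPM in NCD. CD73-MCD lies above MCD, and NCD replicate 1 alone is the highest library. Its log2 fold change was 3.02 (SE 1.13) in CD73-MCD against MCD and -3.29 (SE 1.18) in MCD against NCD. Without MCD replicate 2 these were 2.56 and -2.81, and without NCD replicate 1 the second was -0.71.

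Of 9 HSP70 exchange factors and partners, 4 were higher and 5 lower in CD73-MCD against MCD, with a median of -0.01, and 5 and 4 without MCD replicate 2. Bag3, an exchange factor that couples HSP70 to small heat shock proteins and autophagy, had 54.5, 86.9 and 38.7 CPM in CD73-MCD, 29.4 and 24.4 CPM in MCD, and 24.1 and 13.7 CPM in NCD. Bag1, an exchange factor that links HSP70 to the proteasome, had 55.4, 85.6 and 36.1 CPM in CD73-MCD, 28.5 and 28.5 CPM in MCD, and 17.9 and 17.1 CPM in NCD. Unlike the members, both had each MCD library above each NCD library. Their log2 fold changes in CD73-MCD against MCD were 1.16 (SE 0.48) for Bag3 and 1.05 (SE 0.44) for Bag1, and in MCD against NCD they were 0.51 (SE 0.51) and 0.71 (SE 0.47). Without MCD replicate 2 they were 1.03 and 1.05, and 0.64 and 0.71.

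Of 14 other J-domain genes, 7 were higher and 7 lower in CD73-MCD against MCD, and 9 and 5 without MCD replicate 2. Dnajb4, a close relative of Dnajb1, had 122, 99.6 and 79.6 CPM in CD73-MCD, 55.1 and 18.9 CPM in MCD, and 71.0 and 39.1 CPM in NCD, and its log2 fold change in CD73-MCD against MCD was 1.44 (SE 0.53), or 0.86 without MCD replicate 2. All 3 CD73-MCD libraries lie above the wild type libraries. Among J-domain genes of this list averaging 20 CPM or more, Dnajc9 was farthest from 0 in MCD against NCD. Dnajc9, which encodes a J-domain protein that also handles histones, stood at -0.67 (SE 0.34), or -0.50 without MCD replicate 2.

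Of the HSP90 cochaperones, 4 of 15 were higher and 11 lower in CD73-MCD against MCD, also without MCD replicate 2. Over all genes tested 47.9% were higher. The median of these cochaperones was -0.15, beside -0.03 over all genes. Fkbp5, a cochaperone of steroid receptors induced by glucocorticoids, had 10.9, 36.3 and 68.6 CPM in CD73-MCD, 129 and 40.3 CPM in MCD, and 10.7 and 51.9 CPM in NCD. Its groups overlap, and its log2 fold changes were -1.13 (SE 0.91) in CD73-MCD against MCD and 1.43 (SE 1.03) in MCD against NCD, or -1.74 and 2.04 without MCD replicate 2. Of the 14 genes of TRiC, the cytosolic chaperonin, and of prefoldin, which hands it clients, 4 were higher and 10 lower in CD73-MCD against MCD, with a median of -0.10, and 6 and 8 without MCD replicate 2. In that comparison the prefoldin subunit gene Pfdn2 was farthest from 0, at -0.28 (SE 0.33), and in MCD against NCD it was Vbp1, another prefoldin subunit, at -0.70 (SE 0.33). Without MCD replicate 2 these were -0.10 and -0.84.

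The remaining lists gave small or mixed values. Of 12 mitochondrial chaperone and protease genes, 8 were higher and 4 lower in CD73-MCD against MCD, with Clpx, the unfoldase of a matrix protease, at -0.52 (SE 0.34), and -0.63 without MCD replicate 2. In MCD against NCD Clpb, a mitochondrial disaggregase, stood at -0.81 (SE 0.48), and -0.99 without that library. Of 6 tested other HSP70 and HSP110 genes, Hspa2 stood at 0.83 (SE 0.67) in CD73-MCD against MCD and -0.61 (SE 0.71) in MCD against NCD, or 0.39 and -0.17 without it. Of 3 tested heat shock factors and regulators, Hsbp1, which encodes an HSF1-binding protein, stood at -0.19 (SE 0.51) and 0.32 (SE 0.56) in these comparisons, and both signs turned without it, to 0.14 and -0.01. Of 5 other HSF1-responsive genes, Zfand2a stood at 0.98 (SE 0.59) in CD73-MCD against MCD, and 1.23 without it. Macrophages also express the heme oxygenase gene Hmox1 strongly. Among genes of this list averaging 20 CPM or more, Hmox1 was farthest from 0 in MCD against NCD, at 1.68 (SE 1.16). It had 608 CPM in MCD replicate 2 and 62.1 CPM in MCD replicate 1, and it turned to -0.75 without MCD replicate 2.

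**Figure D4:**
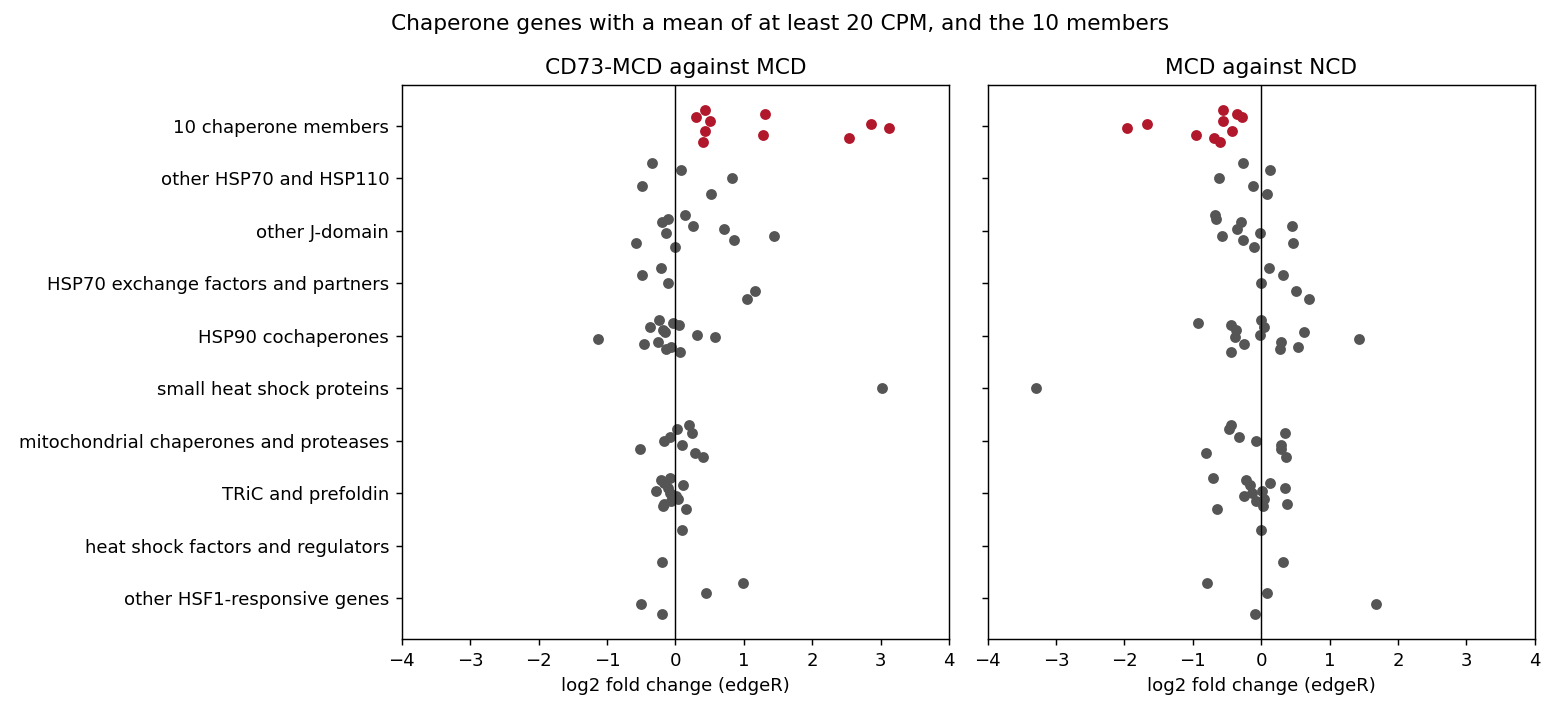
Log2 fold changes fitted by edgeR for the 10 chaperone members (red) and for the other chaperone genes that averaged 20 CPM or more (grey, by list), in CD73-MCD against MCD (left) and MCD against NCD (right); each point is 1 gene. The members lie between 0.31 and 3.12 on the left and between -1.96 and -0.28 on the right, while most other lists lie on both sides of 0.

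The genes outside the set whose pattern over the 7 libraries was most like the mean of the members, out of 6306 candidates averaging 20 CPM or more, were Ice2, Zbtb20, Rlf, Dnajb4 and Armcx5. Their root mean square distances on centred log2 CPM were 0.10, 0.20, 0.22, 0.24 and 0.27. Ice2 had 29.4, 33.0 and 21.2 CPM in CD73-MCD, 12.97 and 7.82 CPM in MCD, and 25.04 and 15.8 CPM in NCD. Zbtb20 and Rlf encode zinc finger proteins, and Dnajb4 is the J-domain gene described above. The 5 genes nearest to Hspa1a alone were Pcf11, Parp6, Rgs16, Per1 and Hspb1, at distances of 0.61 to 0.75. These distances grow with the size of the changes. Centred Hspa1a ran from -2.77 to 1.58 and the mean of the members from -1.29 to 0.72, so the distances to the 2 profiles cannot be compared. Rgs16, a regulator of G protein signalling, had 410, 453 and 226 CPM in CD73-MCD, 233 and 37.3 CPM in MCD, and 199 and 80.0 CPM in NCD. Per1, a circadian clock gene that acute stimuli also induce, had 104, 261 and 66.1 CPM in CD73-MCD, 50.9 and 18.4 CPM in MCD, and 125 and 21.7 CPM in NCD. The 5 nearest genes were the same for both profiles when libraries were scaled by their totals alone. These distances rest on 7 libraries that share the low values of MCD replicate 2.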

How the data were processed

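RNA-seq of CD4+ CD25+ liver cells was analysed in 7 libraries (3 CD73-MCD, 2 MCD, 2 NCD). The authors deposited raw gene counts for 53465 Ensembl identifiers, with 1 column per library. The submitters' processing notes name the aligner HISAT2 (version 2.1.0) and the build GRCm38. Which tool, annotation and strand setting made the counts, and which kit the libraries, was not given in the sources used here, so reads shared by near-identical or overlapping genes may be split or lost. Symbols, coordinates and lengths came from GENCODE on GRCm38 (53360 identifiers found, 105 not), and upstream sequences from RefSeq on GRCm38.p6.

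The test was that of edgeR 4.0.16 under R 4.3.3 (filterByExpr with a minimum count of 10, TMM, glmQLFit and glmQLFTest, all 7 libraries, 1 coefficient per group, Benjamini-Hochberg over 14784 genes). CPM used TMM-scaled totals, log2 CPM a prior count of 2, and fitted fold changes a prior count of 0.125. Totals of 19731501 to 24398738 counts make a count of 0 allow up to 0.123 to 0.152 CPM (3 counts, counting error only). The spread between libraries was wide, with a biological coefficient of variation of 91.3%. Libraries of a group differed by far more than sampling noise (chi-square over degrees of freedom 93.9 to 348). Scripts were tested on simulated data.

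The members, the lists and the tests were chosen with earlier results of these data known. Outside the members, the text names Hsf1, Nt5e, the tested gene farthest from 0 in each list and main comparison that averages 20 CPM or more, the 5 most alike genes and the most abundant gene of the marker lists it uses. Bag1, Bag3, Dnajb4, Foxp3 and CPM of alike genes given in the text were picked from these lists, in part after their values were seen. Alternatives were other scalings, no filter, DESeq2 1.42.0, limma 3.58.1 voom, the groups compared alone, a replicate block, each library left out and, added after the data were seen, MCD replicate 2 and NCD replicate 1 left out together, a crossed block, and the marker lists and other network genes without 1 of these libraries.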

Additional observations from a re-analysis of the deposited data

How the results depend on the processing

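The sign of all 10 members in CD73-MCD against MCD was positive under each alternative run. Their median log2 fold change ran from 0.59 to 1.36 with 1 library left out. Hspd1 and Hsp90ab1 each came down to 0.01. The median of all genes was 0.11 without MCD replicate 2, and 0.12 without that library and NCD replicate 1. In MCD against NCD the median ran from -1.03 to -0.27 with 1 library left out. Over all alternatives the number of members higher in this comparison ran from 0 to 3, and log2 fold changes came nearer to 0 or turned. Hspa1a ran up to -0.26, Hsp90aa1 up to -0.18 and Dnajb1 up to 0.91, beside -0.86, -0.55 and 0.40 with 1 library left out. In MCD against NCD 1 member was higher without MCD replicate 2, 3 without NCD replicate 1, and 3 without both. In CD73-MCD against NCD the median of 0.18 ran from 0.086 to 0.68, reaching 0.68 without NCD replicate 1 and also without that library and MCD replicate 2. Leaving 1 library of a pair assumes that the lone library varies like the other groups. Genes past an adjusted p of 0.05, 0 in each comparison by edgeR, numbered 50, 562 and 315 by DESeq2 and 1, 140 and 54 without the filter on low counts, in CD73-MCD against MCD, CD73-MCD against NCD and MCD against NCD in this order; the cause was not tested. DESeq2 also called 1 other chaperone network gene in CD73-MCD against NCD. Scaling by totals alone moved the median of all genes in CD73-MCD against MCD to 0.07, beside -0.03, and in CD73-MCD against NCD to 0.16, beside 0.06. For CD73-MCD against NCD it turned Hspa8 positive. Over the 15 alternatives in that comparison, the sign turned in 5 for Hspa8, 4 for Hspd1 and 3 for Hsp90ab1.

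No pairing of the libraries by replicate number was seen. Same-numbered libraries of different groups had correlations of their deviations between -0.10 and 0.03, and different-numbered ones between -0.07 and 0.10. In groups of 2 libraries the deviations mirror each other, so this check cannot exclude pairing. With the replicate block the medians were 1.13 in CD73-MCD against MCD, 0.44 in CD73-MCD against NCD and -0.60 in MCD against NCD, and 0 genes passed. A crossed block on MCD and NCD alone also called 0 genes.

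The lowest count of a member in any library was 28, for Hspa1b in MCD replicate 2.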
